A study of Mus musculus with 9 samples.

Results

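Rescue cells of the mouse renal carcinoma line RENCA, which carry Ndufa4l2 on a lentivirus, were compared with RENCA cells that carry an empty vector, to find which transcripts still differed once the gene had been put back. RENCA is a cultured line from a mouse kidney tumor. The comparison used 6 of the 9 libraries of the series, all those of the 2 groups, with 3 libraries in each. All genes with enough counts entered it, 13326 of 54532 in the deposited table. The empty-vector cells were labelled WT. The rescue cells were labelled NDUFA4L2 +/+ and were described as made from the knockout line by lentiviral transduction and selection with puromycin at 1.5 ug/mL. The other 3 libraries came from the knockout, labelled NDUFA4L2 -/-, whose clones were grown from single cells after Cas9 editing. Knockout values are set beside those of the comparison as a parallel group. Whether rescue was made from the knockout clones that were sequenced is not stated, so they need not show the level before re-expression. All groups were grown in the same medium. The promoter of the lentivirus, the number of clones behind each group, and whether empty-vector cells were cloned, edited or given puromycin, are not stated in the labels. Re-expression, the virus, selection and clone choice therefore cannot be told apart. The labels name no separate cultures for the replicates, so the p-values speak only of how far these libraries scatter, which could be a technical scatter.

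Ndufa4l2 encodes a small mitochondrial protein related to Ndufa4, a subunit of the respiratory chain. Its gene is a target of hypoxia-inducible factors, the transcription factors that are stabilised in many kidney cancers when the von Hippel-Lindau protein is lost, and its product is known for lowering mitochondrial respiration. Tumor cells also carry programs that are read out in the gene groups below. Interferons act through JAK kinases and STAT proteins, which bind short promoter elements with their partner factors, heat shock factor drives cytosolic chaperones, and NRF2 drives enzymes of glutathione and NADPH metabolism.

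The edited site is shown because it limits what the RNA can say about the label of the knockout line from which rescue was made. The guide is printed with the start codon of Ndufa4l2 in capitals. It lies at chr10:127514980-127514999 on the plus strand in the GRCm38 annotation, within exon 1, and is followed by ggg.
Ndufa4l2 guide: agATGgcaggaactagtcta
Ndufa4l2 stood at 0.533, 0.386 and 0.642 CPM (counts scaled to library size, corrected for composition) in empty-vector replicates 1 to 3, and at 2.60, 2.63 and 2.20 CPM in rescue. The groups did not overlap, and rescue was the higher. The log2 change in rescue against empty vector was 2.20 ± 0.30 (SE; edgeR adjusted p = 8.0e-06), from 34 counts over the 3 empty-vector libraries and 156 over those of rescue. Knockout stood at 0.445, 0.661 and 0.253 CPM, overlapping empty vector, so the RNA does not check the knockout label. The annotated ends of Ndufa4l2 and of Shmt2 on the other strand overlap, and the labels do not say whether reads were counted by strand. Ndufa4 averaged 106 ± 6.78 CPM under empty vector and 102 ± 5.62 under rescue (SD, n = 3), with a log2 change of -0.05 ± 0.06 (edgeR adjusted p = 0.56).

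Libraries held 14685134 to 24172162 counts in empty vector and 15164167 to 26643877 in rescue. Mitochondrially encoded genes took 2.16 to 3.17% of the counts in empty vector and 2.23 to 2.65% in rescue, so this share, which is also a sign of RNA quality, overlapped between the groups. Across genes, log CPM values of empty-vector and rescue libraries correlated at 0.973 to 0.983, below the 0.990 to 0.994 within empty vector and the 0.993 to 0.994 within rescue. On the first principal component of the 6 libraries, which held 65.6% of the variance, empty vector lay at -36.3 to -20.3 and rescue at 28.0 to 31.2. Replicate 1 of empty vector stood apart on the second component (24.6, against -17.6 and -0.97 for the other empty-vector libraries), and counts that move by over 1.5 times without it are given both ways. The renal epithelial genes Pax8, Pax2, Cdh16, Lrp2, Krt8 and Krt18 were expressed in both groups, the proximal tubule transporter Slc34a1 had no count, and Epcam had at most 1 count in a library. Defining markers of leukocytes (Ptprc, Tyrobp, Adgre1, Itgam, Cd3e), endothelium (Cdh5, Kdr, Emcn) and fibroblasts (Dcn, Lum) were at 0 or 1 count in each of the 6 libraries. Other markers of these cell types were detected, among them Pdgfrb (383 to 718 counts a library), Cd79a (40 to 77), Col1a1 (30 to 135), Csf1r (15 to 35), Lyz2 (12 to 41) and Pecam1 (2 to 12). Cd68, also listed for leukocytes, had 1230 to 1934 counts a library in empty vector and 628 to 943 in rescue.

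Rescue differed from empty vector in many genes, but mostly by a small amount. At an adjusted p under 0.05, 2988 genes were higher in rescue (22.4% of those tested) and 3342 were lower (25.1%), 47.5% in all. The median size of these changes was 0.43 log2 units, and 69.3% of them were under 1.5-fold. At least a 2-fold difference was found for 282 genes that were higher (2.12%) and 439 that were lower (3.29%). The 3 libraries of a group lay wholly above or below those of the other for 55.1% of genes, with rescue above in 26.5% and below in 28.6%. Knockout against empty vector, from the same fit, had 60.6% of genes called, and rescue against knockout 56.8% (29.5% higher, 27.3% lower). Over all genes the median log2 change was -0.02. By chromosome, the medians of the autosomes and of X ran from -0.07 to 0.03.

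**Figure D1:**
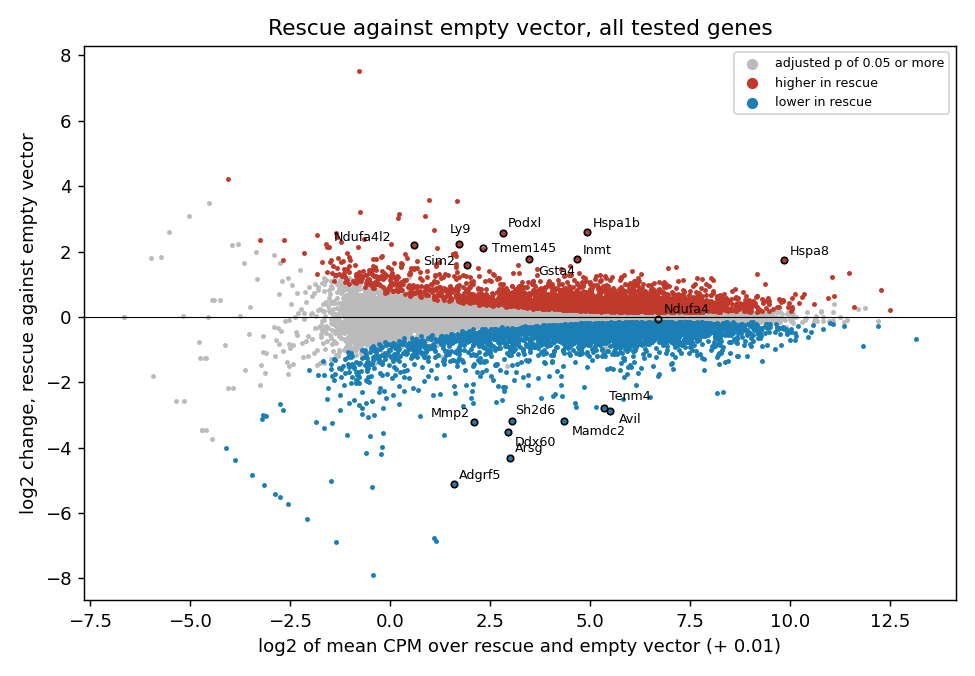
Log2 change in rescue against empty vector (y axis) over mean CPM of the 2 groups (x axis, log2 scale with 0.01 added) for each of 13326 genes. Red and blue points passed an adjusted p of 0.05, grey points did not, and the circled genes are named in the text. Most called genes lie close to 0, while Adgrf5, Arsg and Ddx60 lie furthest down and Hspa1b and Podxl furthest up among the circled ones.

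Among named protein-coding genes that averaged 5 CPM or more in either group, the deepest losses were in genes of several kinds. Adgrf5, an adhesion G protein-coupled receptor, stood at 6.30, 6.04 and 5.17 CPM in empty vector and at 0.107, 0.164 and 0.252 in rescue. All rescue libraries were far below all empty-vector ones, and the log2 change was -5.12 ± 0.25 (SE; edgeR adjusted p = 1.7e-11). In knockout the same gene was above empty vector, at 21.9, 21.7 and 19.9 CPM. Arsg, a lysosomal sulfatase, stood at 12.2, 17.9 and 15.3 CPM with empty vector, 12.2, 14.0 and 11.9 after knockout and 0.855, 0.712 and 0.629 after rescue. Its level in rescue thus had no overlap with either of the other groups, with a log2 change of -4.31 ± 0.19 against empty vector (edgeR adjusted p = 5.6e-12). Mmp2, a gelatinase that digests basement membrane collagen, stood at 8.12, 7.97 and 7.18 CPM with empty vector, 107, 109 and 111 after knockout and 0.855, 0.822 and 0.755 after rescue. Its order was knockout above empty vector above rescue with no overlap at any step, and the log2 change in rescue against empty vector was -3.23 ± 0.14 (edgeR adjusted p = 2.6e-12).

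Other genes among the largest decreases were Ddx60, an antiviral helicase (14.2 ± 3.78 to 1.23 ± 0.119 CPM, SD, n = 3), Sh2d6 (14.8 ± 7.65 to 1.64 ± 0.440), Mamdc2 (36.8 ± 1.51 to 4.16 ± 0.753), Avil, an actin-severing protein (79.8 ± 29.0 to 11 ± 1.58), and Tenm4, a teneurin of the cell surface (70.5 ± 15.5 to 10.6 ± 2.95). Their log2 changes ran from -3.52 ± 0.22 for Ddx60 to -2.77 ± 0.25 for Tenm4. Sh2d6 and Avil varied most within empty vector, where Sh2d6 stood at 6.53, 21.6 and 16.3 CPM, yet no empty-vector library reached down to rescue.

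Under the same limit on expression, the largest increases began with a heat shock gene. Hspa1b, an inducible cytosolic HSP70, stood at 8.83, 8.04 and 9.11 CPM in empty vector and at 58.1, 53.7 and 45.6 in rescue, a log2 change of 2.59 ± 0.10 (SE; edgeR adjusted p = 5.2e-13). It was further up in knockout, at 69.5, 80.0 and 77.9 CPM. Reads of Hspa1b can be shared with its near-identical neighbour Hspa1a, so each is uncertain on its own. Podxl, a sialomucin of podocytes and of tumor cells, stood at 3.82, 0.772 and 1.28 CPM in empty vector and at 11.6, 12.5 and 12.4 in rescue. Its groups did not overlap, but empty-vector replicate 1 was well above the other empty-vector libraries, and the log2 change of 2.57 ± 0.38 (edgeR adjusted p = 0.00055) became 3.51 without empty-vector replicate 1. Ly9, a receptor of the SLAM family, rose from 1.17 ± 0.110 to 5.44 ± 0.296 CPM (SD, n = 3) and Tmem145 from 1.94 ± 0.790 to 8.11 ± 0.385. Gsta4, a glutathione transferase for lipid aldehydes, rose from 5.04 ± 1.11 to 17.3 ± 1.87 CPM, and Inmt, a methyltransferase for indole amines, from 11.5 ± 2.68 to 39.5 ± 3.16. Hspa8, the constitutive HSP70, stood at 491, 372 and 420 CPM with empty vector, 1330, 1388 and 1468 after knockout and 1536, 1466 and 1246 after rescue. Rescue and knockout overlapped for Hspa8 and both lay above empty vector, with a log2 change of 1.73 ± 0.10 in rescue (edgeR adjusted p = 3.7e-10). The transcription factor Sim2 completed the set, at 1.90 ± 0.560 and 5.64 ± 0.889 CPM.

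**Figure D2:**
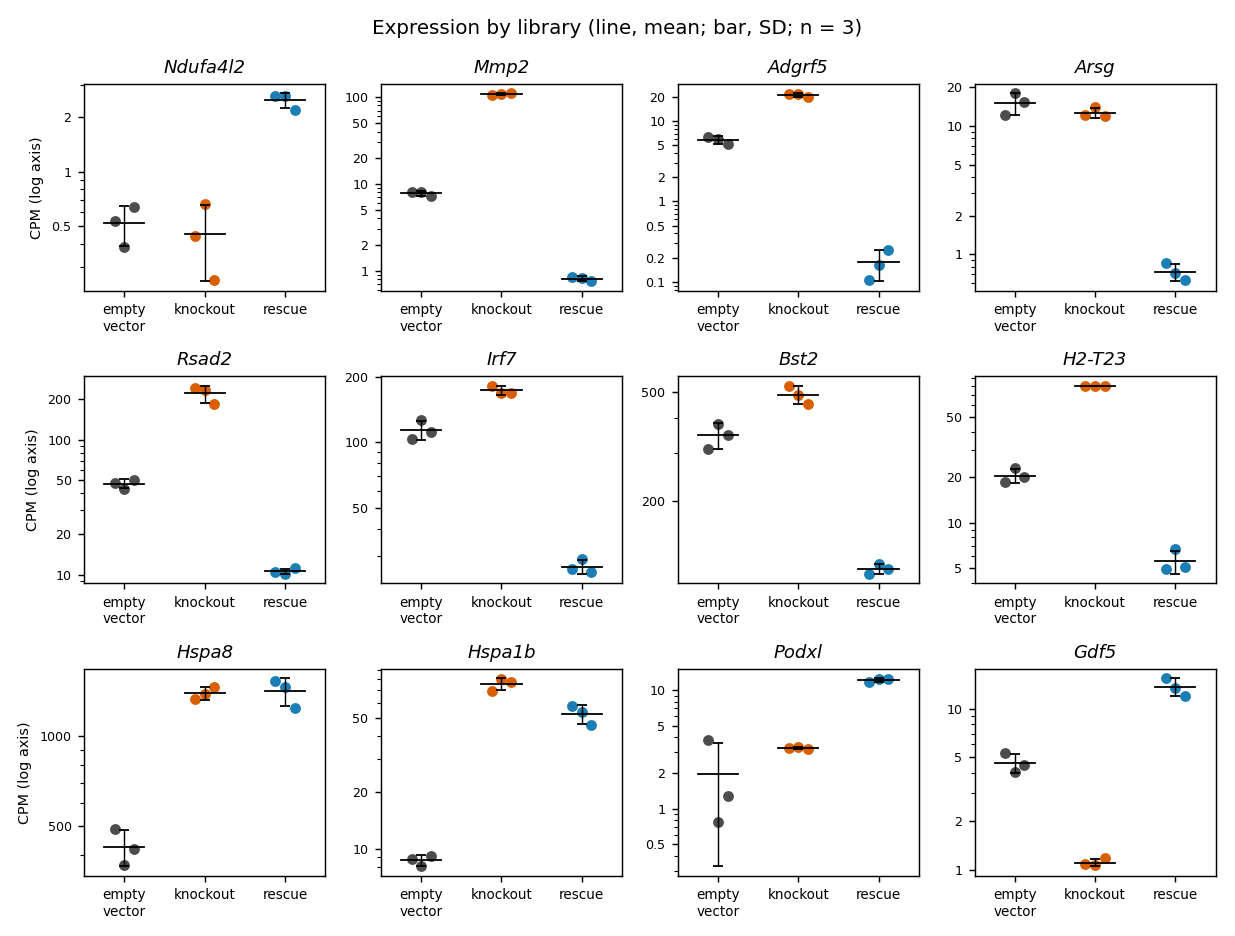
CPM of 12 genes (y axes, log scale, 1 panel each) in the 3 libraries of empty vector, knockout and rescue, with lines at the group means and bars of 1 SD (n = 3). Rsad2, Irf7, Bst2, H2-T23, Mmp2 and Adgrf5 are highest in knockout and lowest in rescue, Hspa8 and Hspa1b are high in both knockout and rescue, and Arsg is low in rescue.

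Some called genes had no count at all in 1 group, 10 of them in rescue and 2 in empty vector. Fhl1, a LIM-domain protein of muscle and stroma, stood at 1.69, 1.16 and 1.60 CPM in empty vector and was higher in the knockout libraries, at 9.15, 7.77 and 5.60. With the 3 rescue libraries together set to a floor of 3 counts, it was at least 31.6-fold lower there than in empty vector. By the same measure Vmn2r3 was at least 15.1-fold lower and Tfec, a relative of the lysosomal regulator Mitf, at least 9.54-fold lower. The transcript Gm13429, with no count in any empty-vector or knockout library, stood at 1.10, 1.31 and 1.07 CPM in rescue and was at least 24.3-fold higher than in empty vector. Zfp991, a zinc finger protein, was nearly lost, with 4.43 ± 0.703 CPM in empty vector and 0.0301 ± 0.0278 in rescue (SD, n = 3). All of these were genes of low expression.

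Interferon-stimulated genes gave the widest loss among the gene groups. Of 50 tested members, 47 were lower in rescue than in empty vector and 1 was higher, against 25.1% lower and 22.4% higher among all genes. Their median log2 change was -1.28, against -0.02 over all genes, and 36 members were at least 2-fold lower, against 3.29% of all genes. In knockout 37 members were above empty vector and 3 below, with a median of 0.65, against 29.5% and 31.1% of all genes tested. Both comparisons share the empty-vector libraries. Summed over the list, the level was 2257 to 2744 CPM in empty vector, 3599 to 3933 in knockout and 1081 to 1129 in rescue. The 3 groups thus did not overlap in the summed level, and rescue lay below empty vector rather than between it and knockout. In bulk RNA a lower level per cell and a smaller share of expressing cells cannot be told apart. The shares of all genes, 25.1% lower and 22.4% higher in rescue, also apply to the counts of each later group. In this and the later groups, members beyond the 3 with the smallest adjusted p were picked for mention after their values were seen.

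Stretches of 120 bases from 4 promoters are shown because their genes were lower in rescue and the stretches hold the interferon-stimulated response element, which STAT complexes and IRF factors are known to bind. They were picked from the promoters with a match. They are from RefSeq for GRCm38.p6, in the direction of transcription, from 160 to 41 bases before the gene start. Capitals mark matches to GAAANNGAAA on either strand, where overlapping matches run together. The stretches are chr8:71537513-71537632 (minus strand) for Bst2, chr12:26456493-26456612 (minus) for Rsad2, chr19:34640729-34640848 (plus) for Ifit1 and chr4:156200859-156200978 (minus) for Isg15.
Bst2: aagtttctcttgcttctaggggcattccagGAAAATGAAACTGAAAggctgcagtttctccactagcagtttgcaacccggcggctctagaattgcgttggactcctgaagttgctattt
Rsad2: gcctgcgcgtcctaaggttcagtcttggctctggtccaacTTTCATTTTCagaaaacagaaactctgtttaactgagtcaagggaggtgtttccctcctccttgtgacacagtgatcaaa
Ifit1: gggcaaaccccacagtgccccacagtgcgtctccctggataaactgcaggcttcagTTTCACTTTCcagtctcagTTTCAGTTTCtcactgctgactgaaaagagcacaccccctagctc
Isg15: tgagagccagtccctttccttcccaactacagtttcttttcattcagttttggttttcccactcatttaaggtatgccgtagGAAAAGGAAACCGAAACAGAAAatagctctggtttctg
The element was counted in windows from 250 bases before to 50 bases after each start. It was found in 21 of 48 windows of the listed genes (43.8%; 40 of the 50 genes had a window), against 3.44% of all 32851 windows. Here and in the later groups, such a share describes the choice of list and does not use the rescue values. Of the 21 genes with a match, 20 were lower in rescue, with a median log2 change of -1.52. Of the 19 matched genes without one, 17 were lower and 1 was higher, with a median of -1.03. A match is a string of letters and not a measured binding site.

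Regulators of the interferon response on the list included Irf7 and Irf9, both lower. Irf7, which amplifies the type I response, stood at 103, 127 and 112 CPM with empty vector, 183, 169 and 168 after knockout and 26.2, 29.0 and 25.3 after rescue. The groups were fully separate, with a log2 change of -2.09 ± 0.08 in rescue against empty vector (SE; edgeR adjusted p = 5.2e-13). Irf9, which guides the STAT complex to the element shown above, stood at 61.3, 68.9 and 71.9 CPM with empty vector, 53.5, 50.8 and 48.7 after knockout and 24.6, 22 and 22.1 after rescue (-1.55 ± 0.08, edgeR adjusted p = 1.8e-11). Unlike Irf7, Irf9 was below empty vector in knockout as well. Stat2, a partner of Irf9, had a value of 0.05 that did not pass. The RNA sensors Ddx58 (-1.20), Ifih1 (-1.15) and Dhx58 (-1.46) were lower too.

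Antiviral effectors were among the deepest of the list. Rsad2, the radical SAM enzyme viperin, stood at 48.0, 43.3 and 50.4 CPM with empty vector, 242, 234 and 184 after knockout and 10.5, 10.2 and 11.1 after rescue (-2.16 ± 0.11, edgeR adjusted p = 5.1e-10). Its knockout and rescue libraries lay on opposite sides of empty vector. Bst2, the virion tether tetherin, stood at 308, 382 and 349 CPM with empty vector, 526, 485 and 450 after knockout and 109, 118 and 113 after rescue (-1.61 ± 0.08, edgeR adjusted p = 2.0e-11). Isg15, a ubiquitin-like modifier, fell from 93.0 ± 10.7 to 27.7 ± 4.63 CPM and Ifit1, a binder of viral RNA caps, from 11.5 ± 1.92 to 2.57 ± 0.392 (SD, n = 3). The log2 changes of the RNA-degrading system's Oas2 (-2.75), Ifi44 (-2.51), Rtp4 (-2.43), the deconjugase Usp18 (-2.09) and Mx2 (-2.15) were of similar size, though Oas family reads can be shared between near-identical copies. Ifit2 was the exception that passed in the other direction, at 35.2, 33.0 and 36.5 CPM in empty vector and 43.9, 43.2 and 49.4 in rescue (0.38 ± 0.07, edgeR adjusted p = 0.00031). Isg20 (-0.02) did not pass.

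Genes of MHC class I antigen presentation, which load and display peptides to CD8 T cells, were also mostly lower. Of 22 tested members 14 were lower and 2 higher, with a median log2 change of -0.63, against 25.1% lower and 22.4% higher among all genes. The summed level overlapped, at 3866 to 4692 CPM in empty vector and 3985 to 4222 in rescue. In knockout 15 were above empty vector and none was below, with a median of 0.54. Without empty-vector replicate 1, the higher members in rescue numbered 5 in place of 2. The transporter subunit Tap1 stood at 95, 99.0 and 96.6 CPM with empty vector, 150, 143 and 131 after knockout and 35.7, 32.1 and 32.3 after rescue (-1.53 ± 0.07, edgeR adjusted p = 5.3e-12). The nonclassical heavy chain H2-T23 stood at 18.5, 23 and 19.9 CPM with empty vector, 80.5, 79.8 and 79.6 after knockout and 4.92, 6.68 and 5.09 after rescue (-1.88 ± 0.11, edgeR adjusted p = 1.7e-10). For both genes the order was knockout, empty vector, rescue, with no overlap. The classical chain H2-D1 fell from 678 ± 26.4 to 365 ± 20.8 CPM (SD, n = 3) and H2-K1 had a log2 change of -0.76. Nlrc5, the transactivator of class I genes, was low throughout and fell from 2.99 ± 1.40 to 0.339 ± 0.0797 CPM. The immunoproteasome subunits Psmb8 (-0.83) and Psmb9 (-0.63) and the light chain B2m (-0.31) were lower, while tapasin, Tapbp (-0.14), did not pass. The higher members, Pdia3 (0.54) and Psme1 (0.23), are an oxidoreductase of the endoplasmic reticulum and a proteasome activator. Reads of the H2 family may be split among close copies, which leaves single H2 genes uncertain.

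Immune checkpoint ligands, surface proteins that restrain or alert lymphocytes and macrophages, had 6 lower and 1 higher among 10 tested members, with a median of -0.32. Cd47, the signal that macrophages read as self, stood at 135, 146 and 141 CPM with empty vector, 151, 145 and 143 after knockout and 58.6, 60.4 and 62.1 after rescue (-1.22 ± 0.06, edgeR adjusted p = 1.7e-11). Cd274, the ligand PD-L1, stood at 106, 108 and 117 CPM with empty vector, 81.0, 83.0 and 78.7 after knockout and 51.3, 47.5 and 52.0 after rescue (-1.14 ± 0.06, edgeR adjusted p = 9.4e-11). Rescue was the lowest group for both, while knockout overlapped empty vector only for Cd47. Pvr, the ligand of the receptors DNAM-1 and TIGIT, fell from 180 ± 5.61 to 107 ± 4.06 CPM (SD, n = 3), and Cd276 (-0.92) and Nectin2 (-0.43) were lower as well. Lgals9 (0.25) was the member that was higher.

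Among 27 NF-kappa-B response genes and chemokines 11 were lower and 2 higher, with a median of -0.28. In knockout 17 were below empty vector and 2 above. Csf1, the growth factor of macrophages, stood at 930, 866 and 892 CPM with empty vector, 798, 729 and 725 after knockout and 329, 342 and 384 after rescue (-1.35 ± 0.07, edgeR adjusted p = 7.6e-11). Icam1, an adhesion ligand for leukocytes, stood at 30.3, 28.4 and 29.9 CPM with empty vector, 3.62, 2.64 and 2.23 after knockout and 16.6, 15.4 and 16.5 after rescue (-0.87 ± 0.10, edgeR adjusted p = 9.6e-07). Icam1 in rescue thus lay between the other groups and reached neither. Il23a, a cytokine subunit, had the same order, at 10.6 ± 0.154, 0.597 ± 0.307 and 2.38 ± 0.317 CPM in empty vector, knockout and rescue (SD, n = 3). Tnf (-1.49), Cxcl2 (-0.96) and the subunits Relb (-0.89) and Rela (-0.53) were lower. The members that were higher were the chemokines Ccl2 (0.56) and Cxcl5, which went from 0.212 ± 0.0410 to 0.756 ± 0.141 CPM. Without any single one of the libraries other than empty-vector replicate 1, the number of higher members was 1. It was also 1 with DESeq2, with a filter at a mean of at least 5 CPM and with the 6 libraries alone.

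**Figure D3:**
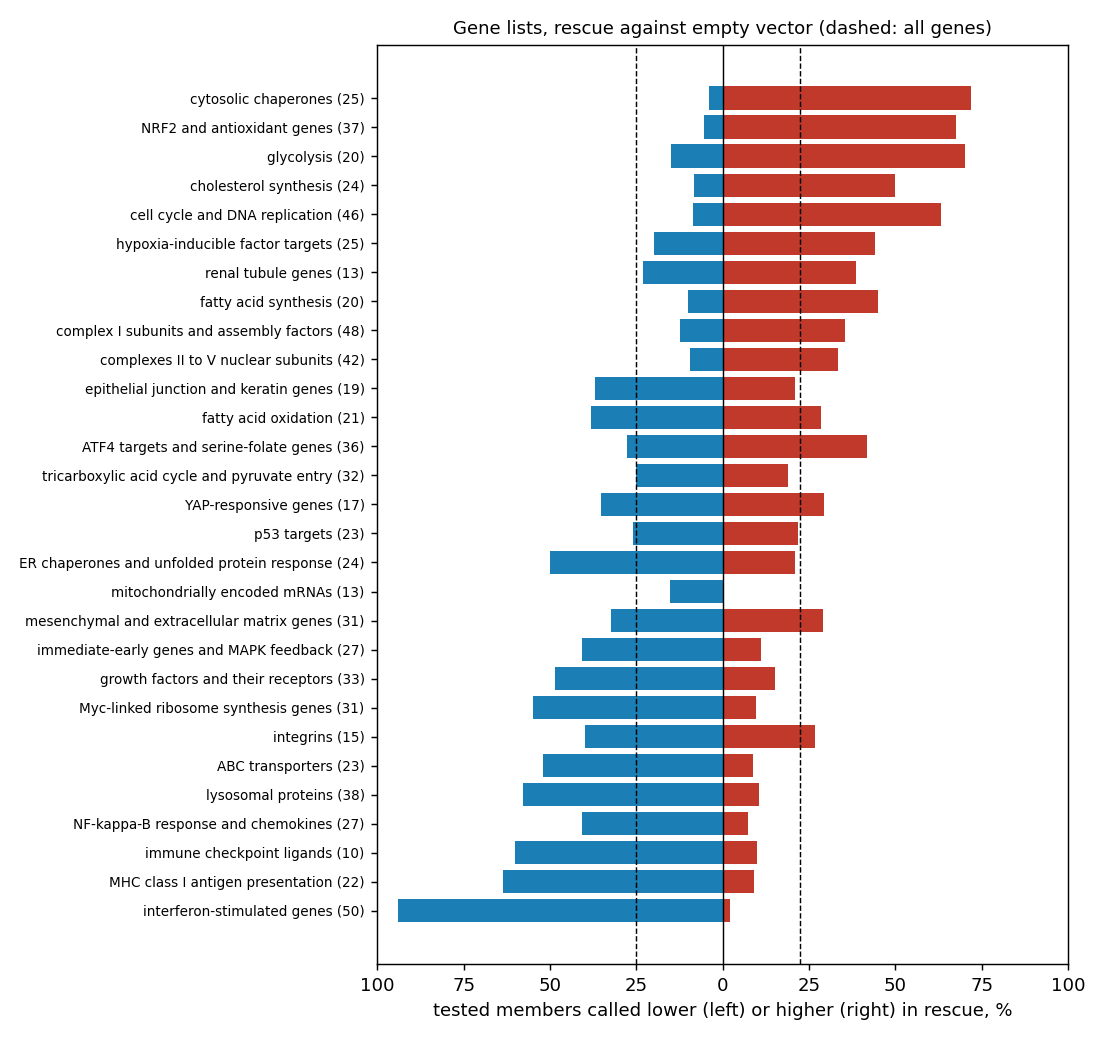
Percent of the tested members of each gene list that were called lower (bars to the left) or higher (bars to the right) in rescue against empty vector, ordered by median log2 change, with the number tested in brackets. Dashed lines mark the percent over all genes, 25.1% lower and 22.4% higher. Interferon-stimulated genes reach furthest left, and cytosolic chaperones, glycolysis and antioxidant genes furthest right.

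Cytosolic chaperones, which fold client proteins and hold them during heat and proteotoxic stress, were the group with the highest share of higher genes in rescue. Of 25 tested members 18 were higher and 1 was lower, with a median of 0.52. In knockout 11 were above empty vector and 11 below, with a median of 0.05. The summed level was 8367 to 10105 CPM in empty vector, 11068 to 11756 in knockout and 15086 to 15621 in rescue. The sums did not overlap and were highest in rescue. Besides Hspa8 and the inducible pair Hspa1a and Hspa1b, both HSP90 genes took part. Hsp90aa1 stood at 1424, 1150 and 1251 CPM with empty vector, 1916, 1780 and 1894 after knockout and 3012, 3045 and 2869 after rescue (1.22 ± 0.08, edgeR adjusted p = 1.3e-09). Hsp90ab1 rose from 1604 ± 294 to 4061 ± 102 CPM (SD, n = 3), with 2872 ± 124 in knockout. The HSP40 co-chaperone Dnajb1 rose from 43.7 ± 5.38 to 94.0 ± 0.588 CPM, and Dnaja1 (0.92), the small chaperone Hspb1 (0.72) and the exchange factors Hsph1 (0.70) and Bag3 (0.52) were higher. Hsf1, the factor that drives these genes, had a log2 change of -0.07 that did not pass, and Hspb8 (-0.62) was the lower member. Of the chaperonin ring subunits, Cct3 and Cct4 had values of 0.03 that did not pass, and Cct5 was higher by 0.17. A heat shock element written GAANNTTCNNGAA, searched on both strands, was in 5 of 28 promoter windows of the list (17.9%) against 0.603% of all windows. Of the 4 genes with a match 3 were higher, with a median of 0.20, and of the 16 matched genes without one 12 were higher and 1 lower, with a median of 0.54.

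The unfolded protein response of the endoplasmic reticulum did not follow the cytosolic chaperones. Of 24 tested members 12 were lower and 5 higher, with a median of -0.10, and without empty-vector replicate 1 the higher ones numbered 9. In knockout 14 were above empty vector and 7 below. The sensors and their main target were lower: Ern1 stood at 489, 481 and 475 CPM with empty vector, 298, 282 and 255 after knockout and 174, 174 and 209 after rescue (-1.38 ± 0.08, edgeR adjusted p = 1.2e-10). Ern1 encodes IRE1, the sensor that splices Xbp1. Atf6, the sensor that is cut in the Golgi, fell from 649 ± 29.1 to 364 ± 29.3 CPM (SD, n = 3), close to the 343 ± 13.5 of knockout. Hspa5, the chaperone BiP, stood at 4315, 4861 and 5002 CPM with empty vector, 3060, 3125 and 2890 after knockout and 2538, 2514 and 2596 after rescue (-0.89 ± 0.08, edgeR adjusted p = 6.2e-08). Rescue was lowest for Hspa5 with no overlap, whereas the oxidoreductases Pdia3 (0.54) and Pdia4 (0.55) and the translocon subunit Sec61b (0.56) were higher.

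Targets of ATF4, the factor of the integrated stress response, and genes of serine and folate metabolism went both ways, with 15 higher and 10 lower of 36 and a median of 0.03. Ppp1r15a, which recruits the phosphatase that ends this response, stood at 477, 553 and 573 CPM with empty vector, 60.3, 56.8 and 55.2 after knockout and 81.0, 106 and 142 after rescue (-2.29 ± 0.19, edgeR adjusted p = 4.9e-05). Rescue was above knockout but still far below empty vector. Ddit3, the factor CHOP, was lower (-0.66). In contrast Chac1, which degrades glutathione, rose from 99.4 ± 10.2 to 219 ± 7.28 CPM and Atf5 from 123 ± 15.5 to 283 ± 17.8 (SD, n = 3), with Atf5 at 339 ± 25.7 in knockout. Ddit4, an inhibitor of mTORC1, rose from 278 ± 18.6 to 507 ± 52.8 CPM and stood at 512 ± 34.3 in knockout.

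NRF2 and antioxidant genes were mostly above empty vector in rescue. Of 37 tested members 25 were higher and 2 lower, with a median of 0.51, and 7 were at least 2-fold higher against 2.12% of all genes. In knockout 31 were above empty vector and 1 below, with a median of 0.75. Gstm1, a glutathione transferase, stood at 36.5, 31.2 and 33.1 CPM with empty vector, 109, 102 and 109 after knockout and 74.1, 77.0 and 78.2 after rescue (1.18 ± 0.07, edgeR adjusted p = 1.3e-10). Srxn1, which repairs oxidised peroxiredoxins, stood at 185, 160 and 158 CPM with empty vector, 450, 443 and 489 after knockout and 380, 366 and 356 after rescue (1.13 ± 0.07, edgeR adjusted p = 4.4e-10). In rescue both genes lay between knockout and empty vector and overlapped neither. Gsta3 rose from 11.3 ± 2.30 to 33.6 ± 1.90 CPM (SD, n = 3), Gsr, glutathione reductase, from 43.9 ± 8.98 to 110 ± 2.54, and Nqo1, a quinone reductase, from 11.5 ± 1.35 to 25 ± 0.705. Each of these 3 was higher still in knockout, at 79.4, 158 and 30.0 CPM. Enzymes of the pentose phosphate route were higher, with G6pdx at 1.02, Tkt at 0.69 and Pgd at 0.55. Nfe2l2, which encodes NRF2 itself (-0.10), did not pass, and its inhibitor Keap1 was higher (0.49). Sqstm1 (-0.57) and the efflux pump Abcc1 (-0.41) were the lower members. Transferases of the Gsta and Gstm families have near-identical copies and are uncertain one by one. An antioxidant element written TGACNNNGC, searched on both strands, was in 27.5% of the list's 40 promoter windows against 12.4% of all windows. Of the 11 genes with a match 8 were higher, with a median of 0.53, and of the 20 without one 12 were higher and 1 lower, with a median of 0.50.

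**Figure D4:**
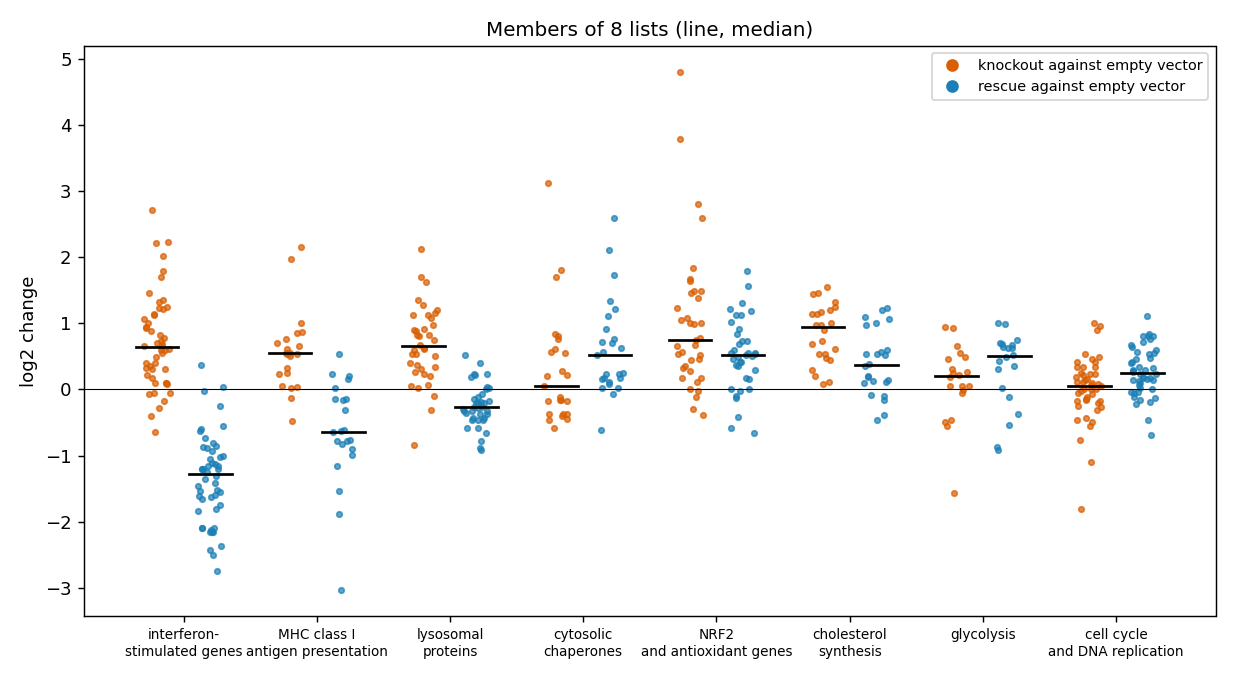
Log2 changes (y axis) of each tested member of 8 gene lists in knockout against empty vector (orange) and in rescue against empty vector (blue), with a line at each median. Both comparisons share the empty-vector libraries. The medians of interferon-stimulated, class I and lysosomal genes lie above 0 in knockout and below 0 in rescue, and those of antioxidant and cholesterol synthesis genes lie above 0 in both.

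Genes of glycolysis were higher in rescue, 14 of 20 with 3 lower and a median of 0.51. In knockout 8 were above empty vector and 4 below, with a median of 0.20. The summed level was 7364 to 9499 CPM in empty vector, 8612 to 9040 in knockout and 10802 to 11567 in rescue, so rescue alone stood clear of the rest. Hexokinase Hk1 stood at 128, 103 and 105 CPM with empty vector, 210, 221 and 217 after knockout and 181, 191 and 176 after rescue (0.70 ± 0.07, edgeR adjusted p = 3.4e-07). Pfkm, a subunit of phosphofructokinase, rose from 92.9 ± 11.5 to 148 ± 2.61 CPM and its liver-type relative Pfkl from 160 ± 43.7 to 318 ± 14.8 (SD, n = 3). Tpi1 stood at 565, 393 and 373 CPM with empty vector, 473, 524 and 518 after knockout and 914, 926 and 820 after rescue (1.00 ± 0.14, edgeR adjusted p = 0.00013). Lactate dehydrogenase Ldha stood at 1162, 971 and 859 CPM with empty vector, 982, 1065 and 1041 after knockout and 1677, 1674 and 1476 after rescue (0.69 ± 0.09, edgeR adjusted p = 7.8e-06). For Tpi1 and Ldha knockout overlapped empty vector and only rescue lay above. The lactate exporter Slc16a1 was lower instead, from 891 ± 105 to 489 ± 19.9 CPM, as were Eno2 (-0.54) and Pfkfb3 (-0.37). Gapdh has many processed copies, varied widely between libraries (53.3 ± 73.0 CPM in empty vector) and cannot be judged here.

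Targets of hypoxia-inducible factors had 11 higher and 5 lower of 25, with a median of 0.21. The higher ones include Ndufa4l2 itself, which the lentivirus carries. The summed level was 7653 to 9049 CPM in empty vector and 7458 to 7625 in rescue, so the sum was lower in rescue. Angptl4, a secreted inhibitor of lipoprotein lipase, stood at 429, 527 and 484 CPM with empty vector, 154, 163 and 166 after knockout and 101, 90.5 and 93.3 after rescue (-2.34 ± 0.08, edgeR adjusted p = 1.8e-13). It was lowest in rescue, further from empty vector than in knockout. The carbonic anhydrase Car12 fell from 338 ± 9.10 to 215 ± 4.09 CPM (SD, n = 3), and Adm (-0.69) and Vegfa (-0.50) were lower. Ankrd37 (1.39), Bnip3l (0.74), which marks mitochondria for removal, Pdk1 (0.61) and Hif1a (0.58) were higher, and the glucose transporter Slc2a1 (0.02) and Car9 (-0.02) did not pass.

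Nuclear genes of the respiratory chain changed by small amounts. Of 48 complex I subunits and assembly factors 17 were higher and 6 lower, with a median of 0.11, while among 42 nuclear subunits of the other complexes 14 were higher and 4 lower, with a median of 0.10. None of either list reached a 2-fold change. The complex I subunit Ndufb10 stood at 43.9, 33.8 and 36.4 CPM with empty vector, 47.9, 54.2 and 54.5 after knockout and 60.6, 62.2 and 58.0 after rescue (0.66 ± 0.08, edgeR adjusted p = 3.2e-06). Ndufv3 rose from 31.9 ± 3.33 to 44.1 ± 2.60 CPM and Ndufs7 from 61.6 ± 1.46 to 81.7 ± 4.89 (SD, n = 3). In the other complexes the Rieske protein Uqcrfs1 rose from 59.1 ± 8.65 to 97.7 ± 2.01 CPM, and the succinate dehydrogenase subunits split, with Sdhd up from 50.3 ± 1.40 to 78.9 ± 6.90 and the catalytic Sdha down from 265 ± 12.3 to 180 ± 6.17. The Rieske protein and Sdhd were higher in knockout as well, at 76.5 and 67.8 CPM, while Sdha in knockout (254 ± 18.8) did not differ by the test. Without rescue replicate 1, the lower genes of complexes II to V numbered 2. The 13 mitochondrially encoded mRNAs had 0 higher and 2 lower, with a median of -0.12. In knockout 7 were above empty vector and their median was 1.26, in step with a mitochondrial share of 5.79 to 7.93% of counts there. mt-Co1 stood at 12655, 8253 and 12248 CPM with empty vector, 32316, 29140 and 21431 after knockout and 7279, 7161 and 6534 after rescue (-0.66 ± 0.17, edgeR adjusted p = 0.0048). The gap was narrow for empty-vector replicate 2, and without replicate 1 of empty vector the value was -0.53 and no longer passed. The other member called lower, mt-Co2 (-1.25 ± 0.40, edgeR adjusted p = 0.041), did not pass without empty-vector replicate 2 or 3, knockout replicate 2 or any 1 of the rescue replicates. Neither gene passed when every gene with at least 1 count was kept, which left 0 lower members. Nuclear copies of mitochondrial genes can share their reads. The lower members numbered 1 without empty-vector replicate 1 or 3, knockout replicate 2 or any 1 of the rescue replicates. There was 1 higher member without empty-vector replicate 1 or 3 or knockout replicate 1 or 3, with limma-voom, with a dispersion that was not robust and with the 6 libraries alone, so neither count of this list is steady.

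Enzymes of the tricarboxylic acid cycle and of pyruvate entry had 6 higher and 8 lower of 32, with a median of -0.01, close to the shares of all genes (22.4% and 25.1%). Without empty-vector replicate 1 there were 10 higher members. Pdk1, a kinase that shuts pyruvate out of mitochondria, stood at 43.8, 42.6 and 36.4 CPM with empty vector, 31.2, 34.1 and 33.6 after knockout and 66.0, 65.1 and 55.8 after rescue (0.61 ± 0.08, edgeR adjusted p = 4.6e-06). Its kin Pdk2 was higher too (0.67), while Pdk4 was lower (-0.25).

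Genes that make cholesterol were more often higher than lower in rescue. Of 24 cholesterol synthesis genes 12 were higher and 2 lower, with a median of 0.37, and without empty-vector replicate 1 the higher ones numbered 19. In knockout 22 were above empty vector and none below, with a median of 0.94. The summed level was 5122 to 6573 CPM in empty vector, 9445 to 9972 in knockout and 5961 to 6103 in rescue. By this sum rescue overlapped empty vector. Hmgcs1, an early enzyme of the pathway, stood at 45.2, 44.0 and 43.8 CPM with empty vector, 87.1, 81.4 and 92.1 after knockout and 92.9, 88.3 and 85.6 after rescue (1.01 ± 0.06, edgeR adjusted p = 4.6e-10). Rescue and knockout overlapped for Hmgcs1, and neither came near empty vector. Mvd rose from 27.8 ± 5.22 to 65.6 ± 2.15 CPM (SD, n = 3), squalene synthase Fdft1 from 44.5 ± 10.8 to 103 ± 3.37 and the sterol carrier Stard4 from 104 ± 6.34 to 151 ± 10.3, while Srebf2, the regulator of the pathway (-0.11), did not pass. Of 20 fatty acid synthesis genes 9 were higher and 2 lower, with a median of 0.15, and 18 were above empty vector in knockout. Their summed level overlapped, at 7172 to 9992 CPM in empty vector and 8568 to 9112 in rescue. Fasn stood at 425, 364 and 358 CPM with empty vector, 1161, 1122 and 1153 after knockout and 569, 556 and 534 after rescue (0.53 ± 0.07, edgeR adjusted p = 6.9e-06). Lpin1, a phosphatidate phosphatase, rose from 10.3 ± 0.397 to 28.3 ± 2.57 CPM, and Acly, which makes cytosolic acetyl-CoA, from 235 ± 27.3 to 352 ± 12.9. Srebf1 was lower (-0.34). Without empty-vector replicate 2 the lower members of this list numbered 4.

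Fatty acid oxidation had 6 higher and 8 lower of 21 genes, with a median of 0.05, against 22.4% higher and 25.1% lower among all genes. Cpt1a, which admits fatty acids to mitochondria, stood at 159, 193 and 189 CPM with empty vector, 125, 129 and 131 after knockout and 84.2, 78.5 and 83.4 after rescue (-1.14 ± 0.07, edgeR adjusted p = 4.0e-10). The groups descended in that order without overlap. Acot2, a thioesterase, fell from 387 ± 30.6 to 230 ± 17.3 CPM and Eci1 from 31.1 ± 2.45 to 19.2 ± 0.0736 (SD, n = 3). Acadm (0.54) and Echs1 (0.51) were higher. The number of higher genes was 3 without empty-vector replicate 2 or without rescue replicate 2, and that of lower genes 5 without rescue replicate 2.

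Cell cycle and DNA replication genes were mostly higher, 29 of 46 with 4 lower and a median of 0.25. In knockout 17 were above empty vector and 15 below. Plk1, a mitotic kinase, stood at 49.7, 44.9 and 47.5 CPM with empty vector, 94.7, 88.6 and 101 after knockout and 104, 102 and 99.9 after rescue (1.10 ± 0.06, edgeR adjusted p = 1.7e-10). Knockout and rescue overlapped, both well above empty vector. Cyclin A2, Ccna2, stood at 145, 123 and 125 CPM with empty vector, 146, 147 and 166 after knockout and 230, 230 and 229 after rescue (0.81 ± 0.07, edgeR adjusted p = 3.4e-08). Mcm4, a subunit of the replicative helicase, rose from 171 ± 15.2 to 300 ± 2.68 CPM (SD, n = 3), with 319 ± 13.0 in knockout. The entry factors were on the other side, with Cdk6 at -0.69, Ccnd1 at -0.46 and Cdk2 at -0.20, and Mki67 (-0.12) did not pass. Without rescue replicate 3, 2 genes of this list were lower in place of 4. Ribosome synthesis genes linked to Myc had 17 lower and 3 higher of 31, with a median of -0.17, against -0.47 and 26 lower in knockout. The RNA helicase Ddx21 stood at 419, 454 and 457 CPM with empty vector, 196, 193 and 211 after knockout and 309, 310 and 335 after rescue (-0.48 ± 0.06, edgeR adjusted p = 6.2e-06), so rescue lay between the other groups. Polr1c, a subunit of RNA polymerases I and III, fell from 105 ± 2.01 to 72.3 ± 4.84 CPM, Rrp9 from 108 ± 2.22 to 78.4 ± 2.74, and Myc had a log2 change of -0.54. Among 23 p53 targets 5 were higher, or 3 without empty-vector replicate 2, and 6 lower, with a median of -0.06. These shares were near the 22.4% higher and 25.1% lower of all genes. Tigar, which slows glycolysis, rose from 51.0 ± 3.03 to 79.0 ± 5.32 CPM, and Pmaip1, a BH3-only death protein, fell from 33.6 ± 1.74 to 23.5 ± 2.11, while Cdkn1a (0.02) and Mdm2 (0.14) did not pass.

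Lysosomal proteins were lower in 22 of 38 cases and higher in 4, with a median of -0.27. In knockout 32 were above empty vector and 2 below, with a median of 0.66. The number of higher members was 8 without empty-vector replicate 1 and 2 without empty-vector replicate 3. Naglu, which degrades heparan sulfate, stood at 97.0, 93.1 and 89.8 CPM with empty vector, 94.2, 98.6 and 96.7 after knockout and 51.0, 44.9 and 51.8 after rescue (-0.92 ± 0.07, edgeR adjusted p = 2.1e-09). Scarb2, a membrane protein of lysosomes, stood at 251, 232 and 239 CPM with empty vector, 407, 381 and 367 after knockout and 159, 158 and 163 after rescue (-0.59 ± 0.06, edgeR adjusted p = 3.5e-07). Rescue was lowest for both. The cholesterol exporter Npc1 fell from 67.7 ± 3.34 to 43.2 ± 2.32 CPM (SD, n = 3), and the sulfamidase Sgsh had a log2 change of -0.88. Tpp1 (0.52) and Lipa (0.39) were higher, as were the regulators Tfeb (0.24) and Tfe3 (0.20). Cd68, which sits in lysosomes and also serves as a macrophage marker, stood at 72.2, 79.1 and 77.6 CPM with empty vector, 208, 213 and 194 after knockout and 33.6, 34.6 and 39.5 after rescue (-1.09 ± 0.07, edgeR adjusted p = 6.1e-10). Of 22 listed leukocyte markers 5 could be tested, and Cd68 was the only one called, with 1 higher member beside it without empty-vector replicate 1. The summed level of those 5 was 91.0 to 95.2 CPM in empty vector, 279 to 301 in knockout and 53.5 to 57.0 in rescue. Cd68 made up most of this sum, with means of 76.3, 205 and 35.9 CPM in these groups. The median log2 change of the 5 in rescue against empty vector was 0.22. Ptprc and Tyrobp had at most 1 count.

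ABC transporters, membrane pumps for drugs, lipids and conjugates, had 12 lower and 2 higher of 23, with a median of -0.22. Abca1, the exporter of cholesterol, stood at 76.1, 85.1 and 68.8 CPM with empty vector, 265, 258 and 229 after knockout and 45.6, 37.8 and 39.6 after rescue (-0.89 ± 0.09, edgeR adjusted p = 3.2e-07). Abcc2 fell from 161 ± 16.7 to 80.4 ± 3.39 CPM and Abcc4 from 239 ± 17.6 to 137 ± 7.08 (SD, n = 3). Both were above empty vector in knockout (209 ± 9.08 and 388 ± 27.1). All 3 stood in the order knockout, empty vector, rescue. Without empty-vector replicate 3 or rescue replicate 1, the higher transporters numbered 1.

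Matrix and epithelial genes were called in both directions. Mesenchymal and extracellular matrix genes had 9 higher and 10 lower of 31, shares near the 22.4% higher and 25.1% lower of all genes, with a median of -0.12, against 25 above and 1 below empty vector in knockout, with a median of 1.10. Tenascin, Tnc, fell from 746 ± 54.9 to 474 ± 35.0 CPM and Col12a1 from 371 ± 23.5 to 226 ± 19.6 (SD, n = 3), with Col12a1 at 797 ± 38.1 in knockout. Acta2, smooth muscle actin (2.15), Col1a1 (1.25), the matrix protein Thbs1 (1.19) and the membrane protease Mmp14 (0.97) were higher. Postn (0.52) and Col6a1 (-0.92), which had log2 changes of 6.09 and 4.48 in knockout, did not pass in rescue. Epithelial junction and keratin genes had 4 higher and 7 lower of 19, the higher share again near that of all genes. Cdh1, the epithelial cadherin, stood at 15.4, 9.97 and 10.3 CPM with empty vector, 96.2, 109 and 93.4 after knockout and 2.64, 2.79 and 1.95 after rescue (-2.26 ± 0.20, edgeR adjusted p = 2.3e-06). Esrp1, a splicing factor of epithelial cells, fell from 4.68 ± 0.921 to 0.386 ± 0.292 CPM and Cldn1 from 50.3 ± 2.13 to 22 ± 1.24, while Krt8 (0.55) and Krt18 (0.48) were higher. Integrins had 4 higher and 6 lower of 15, with a median of -0.22, against 22.4% higher and 25.1% lower among all genes. The members with the smallest adjusted p were lower, with Itga6 down from 19.6 ± 0.420 to 8.88 ± 1.42 CPM, Itga7 from 396 ± 31.3 to 216 ± 18.1 and Itgb4 from 38.1 ± 0.133 to 22.5 ± 2.67.

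Growth factors and their receptors had 16 lower and 5 higher of 33, or 3 higher without empty-vector replicate 2 or rescue replicate 3. Among ligands of EGF receptors, Hbegf fell from 66.1 ± 4.75 to 35.9 ± 3.35 CPM (SD, n = 3), Egf from 3.52 ± 1.36 to 0.685 ± 0.210, and Btc (-1.47) and Nrg1 (-0.93) were lower, as was the receptor Egfr (-0.32). Inhba, a subunit of activin, stood at 371, 422 and 425 CPM with empty vector, 164, 154 and 137 after knockout and 157, 171 and 197 after rescue (-1.22 ± 0.09, edgeR adjusted p = 6.4e-09). Rescue overlapped knockout, and the change between them did not pass. Gdf5, a secreted signal for joints and cartilage, stood at 5.28, 4.05 and 4.45 CPM with empty vector, 1.08, 1.07 and 1.18 after knockout and 15.5, 13.5 and 12.1 after rescue (1.57 ± 0.14, edgeR adjusted p = 3.1e-08). The receptor Fgfr2 rose from 0.192 ± 0.0308 to 1.06 ± 0.246 CPM.

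Immediate-early genes and feedback genes of the MAPK pathway had 11 lower and 3 higher of 27, or 5 higher without empty-vector replicate 1 or rescue replicate 1. With library totals alone as the scale, 6 were higher. Atf3 stood at 276, 274 and 302 CPM with empty vector, 97.1, 100 and 99.5 after knockout and 109, 129 and 143 after rescue (-1.16 ± 0.08, edgeR adjusted p = 1.2e-09). Etv4, an ETS factor downstream of receptor kinases, fell from 31.3 ± 3.10 to 14.2 ± 1.94 CPM and Klf6 from 181 ± 19.1 to 111 ± 1.95 (SD, n = 3). Knockout stood at 12.7 CPM for Etv4, where its change to rescue did not pass, and at 89.6 CPM for Klf6, below rescue. Fos (0.68) and Jund (0.38) were higher, and Egr1 (-0.12) did not pass. Genes that respond to YAP had 5 higher and 6 lower of 17, with a median of -0.05, against 22.4% higher and 25.1% lower among all genes. Among them were Cyr61 (0.47) and Ctgf (0.24) on the higher side and Nuak2, from 149 ± 3.55 to 114 ± 2.48 CPM, on the lower. Renal tubule genes had 5 higher and 3 lower of 13, or 3 higher without empty-vector replicate 3 or rescue replicate 2. Their lower share was near the 25.1% of all genes, and their median was 0.15. Pax8, which sets renal lineage, stood at 232, 240 and 237 CPM with empty vector, 106, 92.2 and 97.9 after knockout and 151, 168 and 177 after rescue (-0.52 ± 0.07, edgeR adjusted p = 4.3e-06), between the other groups. Spp1, osteopontin, fell from 123 ± 18.7 to 55.2 ± 3.15 CPM, with 780 ± 5.92 in knockout, and Cd24a rose from 131 ± 2.99 to 265 ± 14.9, with 269 ± 9.30 in knockout.

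Beside the matrix genes, the endothelial and fibroblast marker lists were mostly too low to test. Of 12 endothelial markers 4 could be tested, with 1 higher and 2 lower and a summed level of 240 to 270 CPM in empty vector and 214 to 230 in rescue. The one higher, Esam (0.25 ± 0.07), did not pass without empty-vector replicate 3, where its value was 0.20. Of 13 fibroblast and pericyte markers 6 could be tested, with 3 higher and 1 lower and a summed level of 42.0 to 48.0 CPM in empty vector and 46.2 to 49.7 in rescue. Without empty-vector replicate 3 the lower ones numbered 2. The part of other cell types in the matrix genes was not tested.

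Set beside knockout, 3 patterns were picked out among the genes that still differed from empty vector, each shown by the 5 genes per direction that ranked highest for it. They do not cover all such genes. Genes called in the same direction in both groups, and also called between them, such as Gstm1 and Icam1, are in none. The first is a call in the same direction as in knockout, with no called change between knockout and rescue. Slc39a10, a zinc importer, stood at 107, 54.5 and 59.5 CPM with empty vector, 248, 272 and 204 after knockout and 203, 212 and 219 after rescue. Rescue overlapped knockout, and both lay above empty vector. Id2, an inhibitor of helix-loop-helix factors, stood at 3.11 ± 0.426, 10.6 ± 0.592 and 8.03 ± 2.54 CPM (SD, n = 3) in empty vector, knockout and rescue, and the testis-enriched Hspa2 at 17.0 ± 2.44, 42.5 ± 2.77 and 40.1 ± 2.01. On the lower side the IL-33 receptor Il1rl1 stood at 11.6, 12.5 and 12.5 CPM with empty vector, 5.34, 4.30 and 3.71 after knockout and 5.13, 4.11 and 3.77 after rescue. Ubap1l stood at 7.48, 2.35 and 2.37 CPM in empty vector, knockout and rescue, and the glutathione transferase Gsto1 at 13.1, 5.05 and 4.86. The tumor suppressor Rassf1 stood at 23.8, 7.72 and 9.13 CPM, with each rescue library above each knockout library. Sh2d6, also of this pattern, stood at 4.64, 4.96 and 3.45 CPM after knockout and 1.46, 1.31 and 2.14 after rescue, without overlap. For Slc39a10, Id2, Hspa2 and these lower genes the change from knockout to rescue did not pass, which does not show that the levels are equal.

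In the second pattern knockout was not called against empty vector and rescue was. Besides Podxl, Arsg, Ddx60, Avil and Tenm4, it held the synaptic scaffold Dlg4 at 6.61, 5.85 and 6.50 CPM with empty vector, 7.18, 4.71 and 5.60 after knockout and 12.9, 12.6 and 14.5 after rescue (1.07 ± 0.13, edgeR adjusted p = 2.5e-06). Zfp395 rose from 3.68 ± 0.504 to 7.86 ± 0.427 CPM (SD, n = 3), and the RNA export factor Sarnp from 13.4 ± 3.68 to 32.7 ± 7.12. Hsd11b1, which activates glucocorticoids, stood at 14.2, 8.04 and 10.5 CPM in empty vector and at 24.3, 24.7 and 16.9 in rescue, close at the edges but not overlapping. Carbonic anhydrase Car6 fell from 7.17 ± 1.52 to 1.18 ± 0.597 CPM. The change from knockout to rescue was itself called for each of these genes, with edgeR adjusted p-values of 0.015 for Sarnp and below.

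In the third pattern knockout and rescue lay on opposite sides of empty vector. Map3k7cl stood at 26.1, 28.9 and 29.7 CPM with empty vector, 12.4, 12.8 and 11.7 after knockout and 67.6, 61.1 and 57.7 after rescue (1.14 ± 0.08, edgeR adjusted p = 9.0e-10). The drug-oxidising enzyme Fmo2 went from 16.7 ± 1.00 to 34.4 ± 1.07 CPM (SD, n = 3), with 7.92 ± 1.26 in knockout, and Mum1l1 from 5.65 ± 0.297 to 10.9 ± 1.01, with 0.564 ± 0.221. Fam198b had the same order, at 4.07, 1.33 and 9.25 CPM in empty vector, knockout and rescue. In the other direction stood Mmp2, Cdh1, Rsad2 and H2-T23, described above, and Trim30a, an interferon-induced regulator of the response to Toll-like receptors. Trim30a stood at 6.04, 8.29 and 6.14 CPM with empty vector, 33.8, 33.6 and 30.8 after knockout and 1.03, 1.20 and 1.51 after rescue (-2.46 ± 0.18, edgeR adjusted p = 2.3e-09). For these genes rescue lay beyond empty vector, on the side away from knockout.

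**Figure D5:**
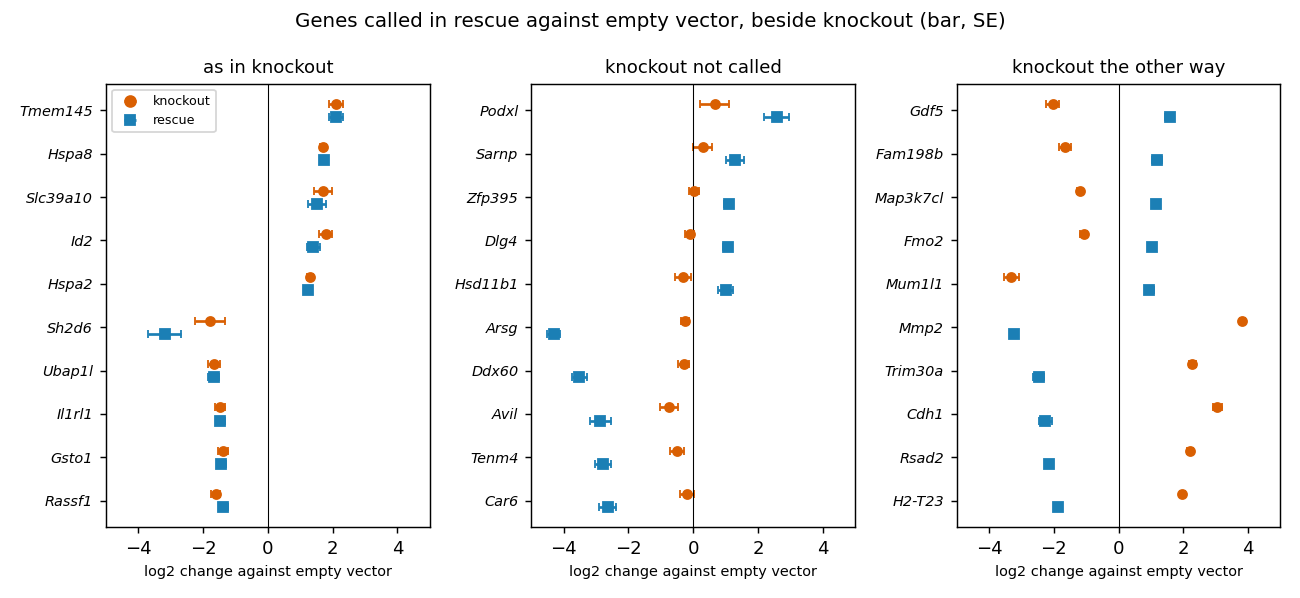
Log2 change against empty vector (x axes) in knockout (orange circles) and rescue (blue squares), with bars of 1 SE, for the 5 genes per direction that ranked highest in each pattern. In the left panel both points lie on the same side of 0, furthest apart for Sh2d6, in the middle panel only the rescue points leave 0 by the test, and in the right panel the points lie on opposite sides of 0. The comparisons share the empty-vector libraries, and the genes were ranked on these values.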

How the data were processed

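Poly(A) RNA of RENCA cells was sequenced per the labels' protocols. The deposited gene counts are raw whole numbers, per the file headers and their values. FPKM values were deposited beside them, per the file headers, and were not tested. CASAVA, HISAT, HISAT2 and TopHat2 and the build mm10 appear in the submitters' processing notes; the counter and the strand setting are not given in the sources used here. All 3 knockout libraries in the labels were used, although the series design text mentions a smaller number.

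Counts were tested with edgeR 4.0.16 (R 4.3.3): filterByExpr, TMM scaling, and a robust quasi-likelihood fit of 1 mean per group to all 9 libraries. The contrast was rescue minus empty vector, with Benjamini-Hochberg adjustment over 13326 genes and calls at an adjusted p under 0.05. Standard errors are the absolute log2 change over the square root of F. Total counts limit the precision (14685134 to 26643877 per library compared), and so does the scatter between libraries of a group. No pair of replicates was a repeat of 1 library (chi-square over degrees of freedom 3.56 to 19.7 within groups). Gene lists were described by counts and medians, with no set test. The test was checked on simulated counts.

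The members and lists were chosen with earlier results of these data known. Genes were named by rule: Ndufa4l2 and Ndufa4; the 8 largest called changes per direction among named protein-coding genes with a mean of 5 CPM or more in whichever group was higher and libraries that did not overlap; the 3 smallest adjusted p per list; and 5 per direction in each pattern against knockout, ranked by the smaller of the 2 log2 changes against empty vector or, where knockout was not called, by that of rescue. Others were named after their values were seen. Not every gene the rule picked is described. Alternatives were DESeq2 1.42.0, limma-voom (limma 3.58.1), other scalings and filters, a replicate block, the 6 libraries alone and leaving out each library. Some genes are not reported here.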

Additional observations from a re-analysis of the deposited data

How the results depend on the processing

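The counts of higher and lower genes stayed within 1.5 times of the reported ones in all 18 alternatives: 2486 to 3476 higher and 2792 to 3483 lower. When each library was left out in turn, 2486 to 3476 were higher and 2792 to 3483 lower, and the counts of at least 2-fold changes were 230 to 357 higher and 404 to 519 lower. With a filter at a mean of at least 5 CPM, which left 10057 genes, the at least 2-fold counts were 90 higher and 186 lower. With library totals alone as the scale, 52.4% of the called genes were higher, against 47.2%, and the median of all genes was 0.01. DESeq2 called 5916 genes, of which 5853 were also called in the same direction by edgeR. Replicate numbers recur across groups, but deviations of same-numbered empty-vector and rescue libraries correlated at -0.15, -0.07 and -0.03, so they were not treated as pairs. With a replicate block, 6091 genes were called, of which 46.9% were higher. Among named genes the block ended the call of mt-Co2 only, and it left 1 mitochondrially encoded mRNA lower and 1 higher. Ndufa4, which did not pass, had log2 changes from -0.095 (without rescue replicate 2) to 0.030 (without empty-vector replicate 1) when libraries were left out in turn. Of the log2 changes of single named genes, 2648 values under the alternatives kept their direction and side of the threshold, 1 changed sign and 11 no longer passed. Those 11 were of Esam, mt-Co1 and mt-Co2, and the cause was not tested. Genes under about 1 CPM rest on few counts, so their fold changes are imprecise. Of 1152 counts of called list members under the alternatives, 1097 stayed within 1.5 times.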
